A study of Mus musculus with 12 samples.

Results

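Uap1 and 6 other genes of the hexosamine pathway and of O-GlcNAc cycling were followed over 12 mouse stem cell samples. The 7 members are Gfpt1, Gnpnat1, Pgm3 and Uap1, which act in turn in the synthesis of UDP-N-acetylglucosamine (UDP-GlcNAc), Nagk, which salvages free N-acetylglucosamine, and Ogt and Mgea5 (now named Oga), which add O-GlcNAc to proteins and take it off again. They were the entries of the gene-level table whose symbol matched the member's name, 7 of 30854 genes, and each name matched 1 entry. Uap1 was selected on its fall in Lin28a loss against wild type in these same arrays, so its values in every comparison that holds wild type or Lin28a loss are a description and carry no test. The 6 others were named by their function, with earlier results of these data known.

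The 4 groups, of 3 arrays each, were wild type, Lin28a loss of function, Lin28b loss of function and loss of both, called double loss here. Lin28a and Lin28b are RNA-binding proteins that block the maturation of let-7 microRNAs and bind many messenger RNAs. The titles give 1 line name per group (wt2, AK01, BK06 and DK05), so line and genotype cannot be told apart; the cells are labelled embryonic stem cells, whereas the deposited design text has iPS controls of wild type, and all were grown with serum and mLif. The RNA was read on Mouse WG-6 BeadChips, with wild type and Lin28a loss together on chip 1 and both groups that lack Lin28b on chip 2. Nothing states that replicates were separate cultures, so p-values may reflect technical spread alone. The number of arrays limits the precision of every value.

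UDP-GlcNAc is the sugar donor for N-glycans, GPI anchors, hyaluronan and heparan sulfate and for the O-GlcNAc mark on nuclear and cytoplasmic proteins. Gfpt1 makes the committed step from fructose 6-phosphate and glutamine, Gnpnat1 adds the acetyl group, Pgm3 moves the phosphate and Uap1 couples the product to UTP. In embryonic stem cells O-GlcNAc is found on transcription factors and chromatin proteins, and Ogt is needed for these cells to survive.

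Promoter sequences are shown for Uap1, the gene with the large difference, and for Gfpt1, the first enzyme of the same pathway, which is described as a target of the stress factor Xbp1. Both are RefSeq sequences of GRCm38.p6, 300 bases long, from 250 bases before the annotated start to 50 bases after it, read 5′ to 3′ on the gene's strand. Capitals mark TGACGT and 2 shorter runs, namely CCACG and also CCAAT, on either strand.
Uap1, chr1:170174915-170175214, minus strand: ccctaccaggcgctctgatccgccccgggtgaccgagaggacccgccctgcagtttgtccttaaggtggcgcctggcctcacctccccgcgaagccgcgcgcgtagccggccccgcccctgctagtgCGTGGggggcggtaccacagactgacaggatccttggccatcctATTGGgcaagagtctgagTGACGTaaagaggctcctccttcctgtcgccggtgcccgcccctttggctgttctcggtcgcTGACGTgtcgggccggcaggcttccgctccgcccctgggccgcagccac
Gfpt1, chr6:87042596-87042895, plus strand: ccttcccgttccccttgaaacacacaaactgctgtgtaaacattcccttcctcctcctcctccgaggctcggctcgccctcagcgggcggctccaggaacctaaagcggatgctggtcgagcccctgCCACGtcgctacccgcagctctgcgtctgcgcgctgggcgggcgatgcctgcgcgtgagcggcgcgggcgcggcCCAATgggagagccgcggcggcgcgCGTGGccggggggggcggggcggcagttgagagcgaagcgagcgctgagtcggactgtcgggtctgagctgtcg
Of the 7 members, 6 had a promoter in the RefSeq table, with 7 starts in all. None of the 7 windows held the unfolded protein response element (TGACGT followed by GG), the cyclic AMP response element (TGACGT followed by CA), the endoplasmic reticulum stress element (CCAAT, then CCACG after 9 bases) or the E-box CACGTG on either strand. Those 4 motifs occur in 0.68%, 1.79%, 0.12% and 7.15% of the 32851 promoters of that table. TGACGT, the core shared by the first pair, was looked for after they had given no match: the Uap1 window holds 2 matches that do not overlap, as 0.56% of all promoters do, and no other member's window holds one. CCACG, found in 32.77% of promoters, occurs once in the Uap1 window and 2 times in that of Gfpt1, and CCAAT, found in 37.41%, once in each. These matches describe letters in a window and nothing about a factor.

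All values below are normalized log2 intensities unless called raw signals, and a gene is above background on an array where its detection p was below 0.01. Mean raw signals of the arrays lay between 325.4 and 596.7, and between 9377 and 10773 genes were above background on an array. Wild type replicate 1, Lin28a loss replicate 3 and double loss replicate 1 were the brightest of their groups, with mean raw signals of 596.7, 542.7 and 476.5. All 10 pluripotent stem cell markers were above background on all 12 arrays, with summed raw signals between 44074 and 71118. None of the 8 fibroblast markers passed detection on any array (summed raw signals from 531 to 1080), yet Vim, an intermediate filament gene, and Thy1 had mean levels from 7.70 to 8.65 and from 6.26 to 8.12. Genes read by several probes could miss detection at a high level: 260 genes with a mean level over 8 passed on no array, and all 260 had several probes. How many such genes did pass was not counted, and Nagk and Ogt, also read by several probes, passed on all 12 arrays. Zfp42 was lower in the 2 single losses (10.19 in Lin28a loss, 10.59 in Lin28b loss) than in wild type (12.30) and double loss (12.52). Of other lineages, Nes and the trophoblast genes Krt8, Krt18 and Tfap2c passed on all 12 arrays, Krt7 on 10, with means from 5.71 to 7.04, and Eomes on 9, highest in Lin28b loss (6.34). T had a mean of 6.31 in wild type and passed on 3 arrays. The part of these markers in the results was not tested. Lin28a itself had a wild-type mean of 7.97 ± 0.10 (SD, n = 3), against 5.66 ± 0.08 in its own loss, 7.03 ± 0.17 where Lin28b was lost and 5.48 ± 0.17 where both were, and Lin28b passed detection on 0 arrays. Whether the probes lie within the altered part of either gene is not given in the sources used here.

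Of the 7 members, 3 were above background on all 12 arrays, namely Uap1, Nagk and Ogt, and these were tested among 9920 genes. The 4 others passed detection on 0 arrays. They are missing from every count of members below, which therefore speaks of 3 genes, or of 2 where Uap1 is a description only.

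**Figure D1:**
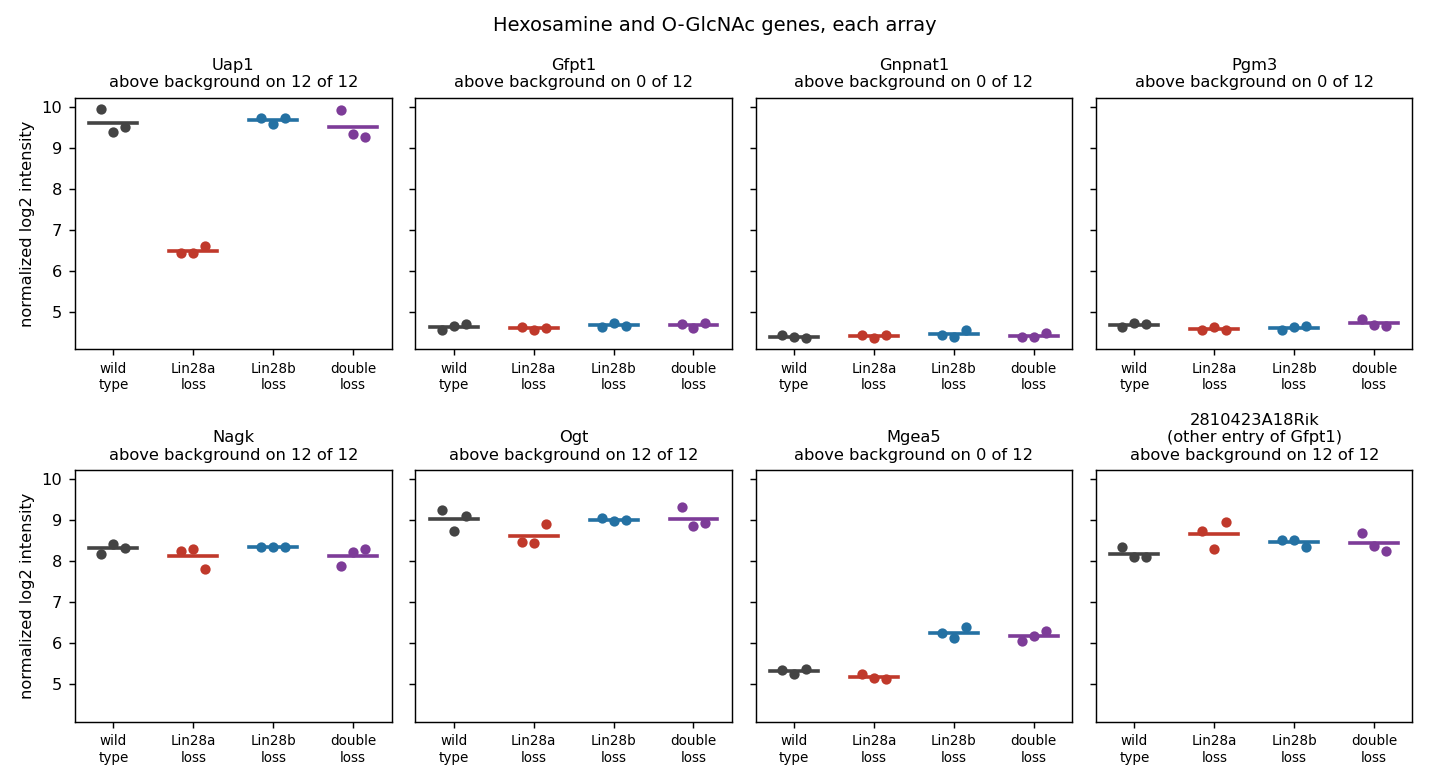
Normalized log2 intensity (vertical axis) of the 7 members and of a further entry of Gfpt1 on each of the 12 arrays, by group, with 1 point per array and a line at the group mean. Uap1 sits between 6.43 and 6.61 in Lin28a loss and between 9.27 and 9.94 elsewhere, while Mgea5 differs by chip at levels that did not pass detection.

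Uap1, which couples GlcNAc-1-phosphate to UTP, stood about 8.7-fold lower in Lin28a loss than in wild type. It was close to wild type in both groups that lack Lin28b, which were on the other chip. The gene lies on chromosome 1 from 170141223 to 170174964 (GRCm38.p6) and is read by 1 probe. Its levels in wild type were 9.94, 9.39 and 9.52. In Lin28a loss they were 6.45, 6.43 and 6.61. All 3 arrays of Lin28a loss were lower than every other array, and the group did not overlap any other.

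In Lin28b loss the Uap1 levels were 9.73, 9.58 and 9.73. In double loss, which lacks Lin28a as well, they were 9.92, 9.34 and 9.27. Those 2 groups and wild type overlapped one another. The raw signals, before any processing, also put every array of Lin28a loss lowest: 1628.7, 666.5 and 841.5 in wild type, 138.3, 118.2 and 185.5 in Lin28a loss, 692.1, 651.5 and 798.5 in Lin28b loss and 1262.3, 587.7 and 446.1 in double loss. The lowest raw signal, 118.2, still lay above the estimated background means of the arrays, which ranged from 42.0 to 61.2, and Uap1 passed detection on all 12 arrays. The bead standard error was between 2.16% and 5.46% of the signal.

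As a description, the log2 difference of Uap1 was -3.12 (SE 0.17, 95% interval -3.49 to -2.75) for Lin28a loss minus wild type. It was the second largest fall of the 9920 genes after that of Sfi1 (-3.72). In that comparison 36.7% of all genes tested were called at an adjusted p below 0.05, of which 18.3% of genes rose and 18.4% fell, and nothing is read from this for Uap1, since the comparison chose it. The difference was 0.06 (SE 0.17) for Lin28b loss minus wild type, -0.11 (SE 0.17) for double loss minus wild type, -3.18 (SE 0.17) for Lin28a loss minus Lin28b loss and 3.01 (SE 0.17) for double loss minus Lin28a loss. These comparisons share groups and are not independent of each other. All of them lie across the chips, so chip and genotype cannot be told apart in them. Under median scaling, Lin28b loss minus wild type was -0.22 (SE 0.34) and Lin28a loss minus Lin28b loss was -2.82 (SE 0.34). The difference between the effect of Lin28a loss with Lin28b lost and that with Lin28b present was 2.95 (SE 0.24), again without a test.

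The comparison of double loss with Lin28b loss holds neither group that chose Uap1, and it is the one place where Uap1 was tested. There the difference was -0.17 (SE 0.17, 95% interval -0.54 to 0.20), with an adjusted p of 0.47 by limma with Benjamini-Hochberg adjustment over all genes. The spread in that fit was estimated from all groups, including wild type and Lin28a loss, which chose Uap1. With only the 2 groups compared in the fit, the difference was -0.17 (SE 0.16, adjusted p = 0.435, limma). The lower bound of the 95% interval was -0.54, while Lin28a loss minus wild type, which chose Uap1, gave -3.12. These values come from different chips and lines, and the replicates may be technical. The difference between them was therefore not tested. In double loss minus Lin28b loss, with all groups fitted, 36.6% of genes were called, 16.9% up and 19.7% down. By limma 0 of the 3 members tested were among them, also at an unadjusted p below 0.05 (0 of 3). The 2 lower double loss arrays were 9.34 and 9.27 and the brightest array was 9.92. Without the brightest array of wild type, Lin28a loss and double loss the difference was -0.37 (adjusted p = 0.00304, limma), and with array weights -0.31 (adjusted p = 0.00769, limma), so that a small fall was called under both settings.

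**Figure D2:**
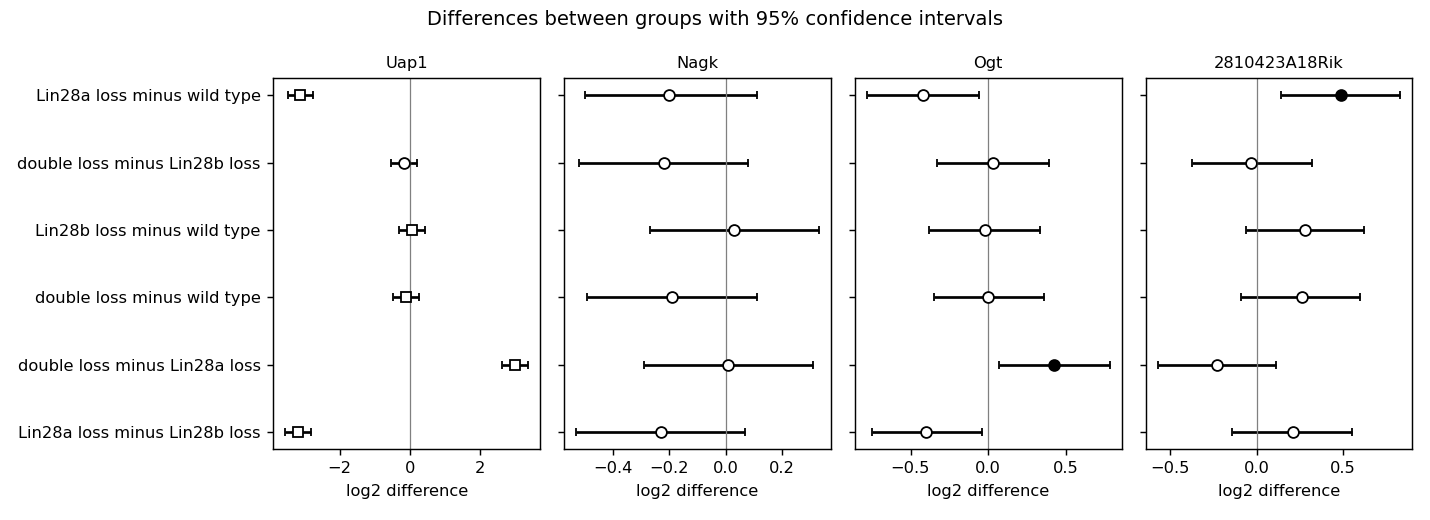
Log2 difference (horizontal axis, scaled separately for each gene) between groups for Uap1, Nagk, Ogt and the further Gfpt1 entry, with 95% confidence intervals from limma; squares mark differences given without a test, filled circles an adjusted p below 0.05 and open circles one above it. Uap1 departs from 0 by about 3 in the 3 comparisons that hold Lin28a loss and in no other, and the filled circles are Ogt in double loss minus Lin28a loss and the further Gfpt1 entry in Lin28a loss minus wild type.

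Gfpt1, the entry point of the pathway, Gnpnat1 and Pgm3 had low signals and passed detection on no array. The raw signals lay between 46.5 and 62.4 for Gfpt1, read by 4 probes, between 37.6 and 50.7 for Gnpnat1, read by 1 probe, and between 44.5 and 66.5 for Pgm3, read by 2. Their group means of normalized level were 4.61 to 4.69 for Gfpt1, 4.39 to 4.47 for Gnpnat1 and 4.58 to 4.72 for Pgm3. For comparison, 14195 genes with 1 probe that passed on no array had a median level of 4.52, with the middle 90% between 4.40 and 4.99. That range holds no gene with several probes, so it does not place Gfpt1 or Pgm3 at background. No level of these 3 members can be compared between groups, and the signals do not show that their transcripts are absent. Gnpnat1 lies on chromosome 14 (45376421 to 45388987), Pgm3 on chromosome 9 (86552476 to 86571878) and Gfpt1 on chromosome 6 (87042846 to 87092207).

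A further entry of the table, 2810423A18Rik, is Gfpt1 by its RefSeq synonym, and it was added after its values had been seen, since the rule matched symbols only. It is read by 1 probe and was above background on all 12 arrays. Its levels were 8.34, 8.10 and 8.11 in wild type and 8.73, 8.31 and 8.97 in Lin28a loss. In Lin28b loss they were 8.53, 8.51 and 8.35, and in double loss 8.68, 8.38 and 8.26. The first pair of groups overlapped, since 8.31 in Lin28a loss lay below 8.34 in wild type. The difference for Lin28a loss minus wild type was 0.49 (SE 0.16), with an adjusted p of 0.0287 by limma, and the call was lost without wild type replicate 2, wild type replicate 3, Lin28a loss replicate 1 or Lin28a loss replicate 3, and under median scaling (adjusted p = 0.388), with no filter (adjusted p = 0.0768) and with only the 2 groups fitted (adjusted p = 0.065), all by limma. With 1 array left out, its adjusted p ran from 0.00399 to 0.104. The difference was -0.03 (SE 0.16, adjusted p = 0.919, limma) for double loss minus Lin28b loss. The brightest array of each of 3 groups gave that group's highest value, and the part of signal strength in these differences was not tested. Of the 2 entries of Gfpt1 this one was detected and the other was not, and which transcript each probe reads is not given in the sources used here.

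Nagk, the kinase that returns N-acetylglucosamine from degraded glycans to the pathway, passed the threshold in none of the 7 comparisons. It lies on chromosome 6 (83794983 to 83802556), is read by 5 probes and passed detection on all 12 arrays. Its levels were 8.19, 8.43 and 8.33 in wild type, 8.25, 8.30 and 7.81 in Lin28a loss, 8.34, 8.35 and 8.35 in Lin28b loss and 7.88, 8.22 and 8.29 in double loss. The 2 lowest values were those of the brightest arrays of Lin28a loss and double loss, and all groups overlapped except Lin28b loss with double loss and Lin28b loss with Lin28a loss, whose ranges were apart by small gaps. The log2 differences were -0.20 (SE 0.14, 95% interval -0.50 to 0.11, adjusted p = 0.297) for Lin28a loss minus wild type and -0.22 (SE 0.14, 95% interval -0.52 to 0.08, adjusted p = 0.246) for double loss minus Lin28b loss, both by limma. For Lin28b loss minus wild type it was 0.03 (SE 0.14, adjusted p = 0.887) and for double loss minus wild type -0.19 (SE 0.14, adjusted p = 0.322), both by limma. The intervals leave room for changes of up to about 0.5 log2 units.

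Ogt, the only enzyme that adds O-GlcNAc to nuclear and cytoplasmic proteins, was somewhat lower in Lin28a loss than in the other groups, at the edge of what the spread allows. It lies on the X chromosome (101640011 to 101684351), is read by 3 probes and passed detection on all 12 arrays. Its levels were 9.26, 8.74 and 9.11 in wild type and 8.48, 8.44 and 8.92 in Lin28a loss. In Lin28b loss they were 9.05, 8.98 and 9.0, and in double loss 9.33, 8.86 and 8.93. Lin28a loss overlapped wild type and double loss through its brightest array, 8.92, and was lower than all 3 arrays of Lin28b loss.

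For Lin28a loss minus wild type the Ogt difference was -0.42 (SE 0.17, 95% interval -0.78 to -0.06) with an adjusted p of 0.063 by limma, which does not pass the threshold, though 1 of the 2 members tested (Ogt) passes unadjusted. With 1 array left out, the adjusted p ran from 0.0145 to 0.194 and passed when replicate 2 of wild type, replicate 3 of Lin28a loss or replicate 1 of double loss was left out, and without the 3 brightest arrays it was 0.00577 (limma). Under median scaling it was 0.521, and the mean of the effects of Lin28a loss on both chips was -0.20 (SE 0.12, adjusted p = 0.211, limma). Double loss minus Lin28a loss gave 0.42 (SE 0.17, 95% interval 0.07 to 0.78), which passed with an adjusted p of 0.0452 by limma. That comparison called 54.0% of all genes, and Ogt was the 1 of 2 members tested that passed it. The call was lost under median scaling (0.28, adjusted p = 0.593, limma), with cyclic loess (adjusted p = 0.0583, limma), with the 2 groups fitted alone (adjusted p = 0.0737, limma), with no filter (adjusted p = 0.111, limma) and when replicate 3 of wild type, replicate 1 or 2 of Lin28a loss, any array of Lin28b loss, or replicate 1 or 3 of double loss was left out, with adjusted p-values up to 0.179. The groups lie on different chips, so chip and genotype cannot be told apart there. Lin28a loss minus Lin28b loss, in which 53.5% of genes were called, gave -0.40 (SE 0.17, adjusted p = 0.0594, limma), so 0 of 2 members passed and 1 did unadjusted.

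Ogt was near 0 in the other comparisons. The difference was 0.03 (SE 0.17, 95% interval -0.33 to 0.39, adjusted p = 0.916) for double loss minus Lin28b loss, -0.02 (SE 0.17, adjusted p = 0.926) for Lin28b loss minus wild type and 0.00 (SE 0.17, adjusted p = 0.991) for double loss minus wild type, all by limma. In Lin28b loss minus wild type 36.1% of genes were called (18.9% rose, 17.2% fell) and in double loss minus wild type 37.1% (18.0% rose, 19.1% fell), with 0 of the 2 members tested in either, adjusted or not (limma). The difference between the 2 effects of Lin28a loss was 0.45 (SE 0.23, adjusted p = 0.151, limma) for Ogt and -0.02 (SE 0.20, adjusted p = 0.946, limma) for Nagk; 37.8% of genes were called and 0 of the 2 members, adjusted or not. For Lin28a loss minus wild type the median difference of 270 X-linked genes was -0.06, against -0.02 on the other chromosomes. For Lin28b loss minus wild type that median was -0.14 against -0.01. Y-linked Eif2s3y had group means of 4.65, 4.55, 7.16 and 6.10 in wild type, Lin28a loss, Lin28b loss and double loss. It passed detection on 6 arrays, whereas the Y-linked genes Ddx3y, Kdm5d and Uty passed on 0. In the same group order Ddx3y had means of 6.46, 6.89, 8.01 and 7.48. Means of Kdm5d and Uty stayed between 4.54 and 4.65, and those of Xist, which silences an X chromosome, between 4.51 and 4.53. Chip and line cannot be told apart for the higher Eif2s3y on chip 2, and its cause was not tested.

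Mgea5, the enzyme that removes O-GlcNAc, had levels that split by chip. It lies on chromosome 19 (45750255 to 45783644) and is read by 4 probes. Its normalized levels were 5.35, 5.26 and 5.38 in wild type and 5.26, 5.16 and 5.14 in Lin28a loss, against 6.25, 6.13 and 6.40 in Lin28b loss and 6.05, 6.17 and 6.31 in double loss. The raw signals overlapped between the chips, with 69.5 to 103.5 on chip 1 and 78.6 to 107.1 on chip 2. Detection p-values ran from 0.01698 to 0.35359, so no array passed. The levels on both chips lay above the middle 90% of undetected genes with 1 probe (4.40 to 4.99). That range holds no gene with several probes, as Mgea5 is, so it does not place Mgea5 above background. Chip and genotype cannot be told apart for a difference of this kind, and Mgea5 was left out of the tests by the filter. With no filter it was called in the 4 comparisons between the chips, at 0.93 (adjusted p = 3.33e-05, limma) for Lin28b loss minus wild type, and in neither comparison within a chip.

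Ordered by mean level, the tested members in wild type were Uap1 at 9.62 ± 0.29 (SD, n = 3), Ogt at 9.03 ± 0.27 and Nagk at 8.32 ± 0.12, each read by other probes, so that the order is not one of transcript number. Across groups, the Uap1 means were 9.68 ± 0.09 in Lin28b loss, 9.62 ± 0.29 in wild type, 9.51 ± 0.36 in double loss and 6.50 ± 0.10 in Lin28a loss, and the first 3 of these lie within one another's spread.

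**Figure D3:**
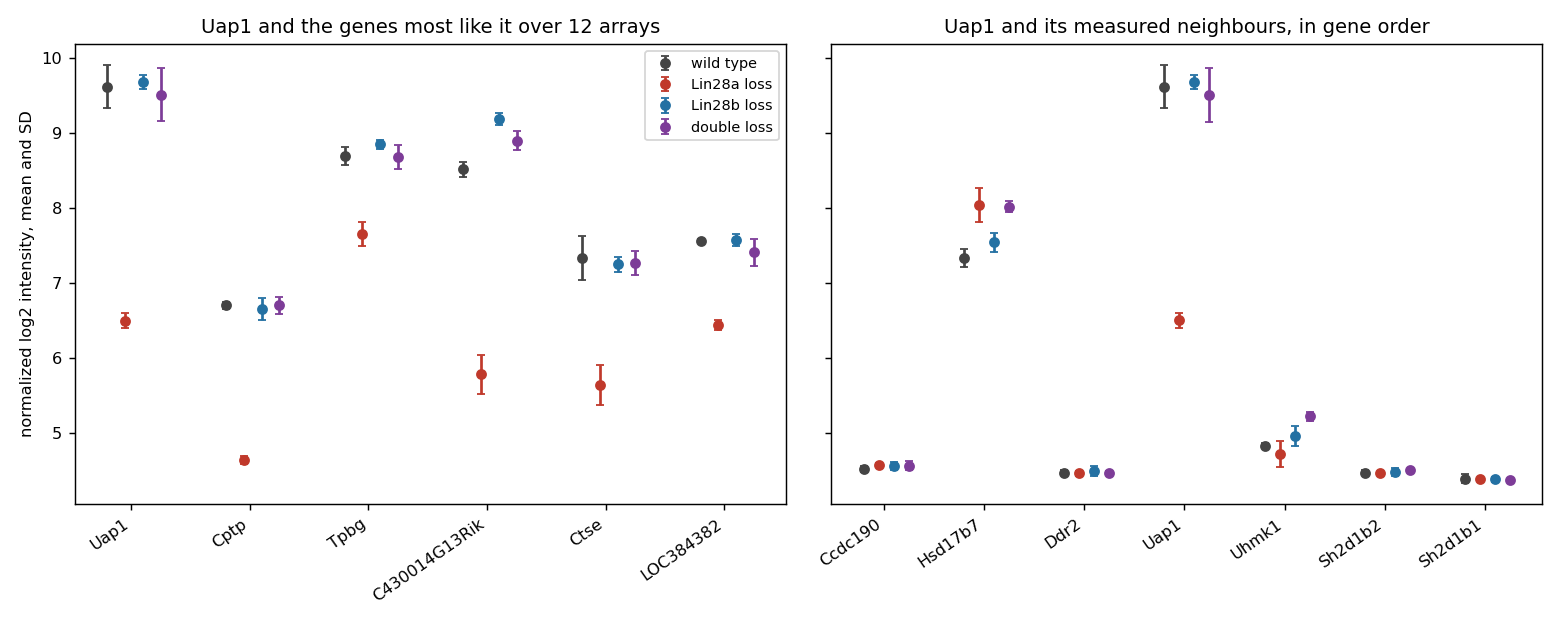
Mean normalized log2 intensity with SD over 3 arrays per group (vertical axis) for Uap1 beside the 5 genes most like it over the 12 arrays (left) and beside its measured neighbours on chromosome 1 in gene order (right). The 5 genes share the low level in Lin28a loss by construction. Of the neighbours, 4 are at background in every group and the tested entry of Uhmk1 is near it. Of the entries shown Hsd17b7 alone could therefore show a low level, and its mean in Lin28a loss is 8.04 against 7.33 in wild type.

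By Pearson correlation of level over the 12 arrays, the genes most like Uap1 were Cptp (r = 0.987), which carries ceramide-1-phosphate, Tpbg (0.986), the trophoblast glycoprotein, C430014G13Rik (0.979), Ctse (0.979), the protease cathepsin E, and LOC384382 (0.978). The points share 4 groups, and 1 group far from the rest sets these values, so they are a description. Cptp passed detection on 1 array of wild type, 0 of Lin28a loss, 3 of Lin28b loss and 2 of double loss, so its r and its place rest partly on undetected values. Their mean levels in wild type against Lin28a loss were 6.70 and 4.64 for Cptp, 8.69 and 7.65 for Tpbg, 8.52 and 5.78 for C430014G13Rik, 7.33 and 5.64 for Ctse and 7.56 and 6.44 for LOC384382. Ctse lies on chromosome 1, as does Uap1, and Cptp and Tpbg lie on chromosomes 4 and 9. Of 9920 genes, 6 had a mean in Lin28a loss at least 2 log2 units lower than in each of the 3 other groups, and this count was taken after the Uap1 pattern was known. They were Uap1, with a smallest gap of 3.01, Otx2 (2.88), a transcription factor of early epiblast and brain, C430014G13Rik (2.74), Acta2 (2.00), the smooth muscle actin, Cptp and Zfp607b. The last pair passed detection on 0 arrays of Lin28a loss, so their levels there are at background and their gaps have no exact size. Otx2 differed from Uap1 in that it was higher in Lin28b loss (11.25) and double loss (10.60) than in wild type (8.58). For Nagk the most similar genes were Mrps16 (r = 0.937), Chchd5 (0.934) and Mmadhc (0.930), and for Ogt they were Tmem87b (0.956), Taf5 (0.956) and Pcgf2 (0.952).

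Most entries described here for the neighbours of Uap1 on chromosome 1 were too dim to show a fall. Of the 5 genes on each side in the RefSeq order, 6 had an entry, of which 4 (Ccdc190, Ddr2, Sh2d1b2 and Sh2d1b1) had group means between 4.37 and 4.57 and passed detection on 0 arrays. Uhmk1, the next gene, passed on 5 arrays and was near background, and had means of 4.83 in wild type, 4.72 in Lin28a loss, 4.96 and 5.22 in Lin28b loss and double loss, and Lin28a loss minus wild type gave -0.11 (SE 0.10, adjusted p = 0.425, limma). Hsd17b7 is an enzyme of cholesterol synthesis and the third gene on the other side. Of the entries described it was the 1 bright enough to show a fall (11 arrays above background), and it was higher where Lin28a was lost. Its levels were 7.45, 7.22 and 7.32 in wild type and 7.97, 7.86 and 8.30 in Lin28a loss, and 7.69, 7.46 and 7.47 in Lin28b loss and 8.09, 8.03 and 7.95 in double loss. The groups did not overlap within either chip, with differences of 0.71 (SE 0.12, adjusted p = 0.00054, limma) and 0.48 (SE 0.12, adjusted p = 0.00716, limma). In these comparisons 36.7% and 36.6% of all genes were called, and the share of genes without overlap was not counted. The 410 chromosome 1 genes tested had a median of -0.03 for Lin28a loss minus wild type, against -0.02 elsewhere.

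The wider pathway was followed through 9 lists with 82 genes, of which 79 had an entry and 57 were tested. Of these 57, 9 rose and 13 fell in Lin28a loss against wild type, with a median of -0.10 beside -0.03 over all genes. In double loss against Lin28b loss 10 rose and 11 fell (median -0.03, all genes -0.01), in Lin28b loss against wild type 11 rose and 7 fell (36.1% of all genes called), and in double loss against wild type 12 rose and 7 fell (37.1% of all genes). The share called in Lin28a loss minus wild type, 22 of 57, stands beside 36.7% of all genes, and that in double loss minus Lin28b loss, 21 of 57, beside 36.6%. The lists below are short, and their counts are read against the same shares.

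**Figure D4:**
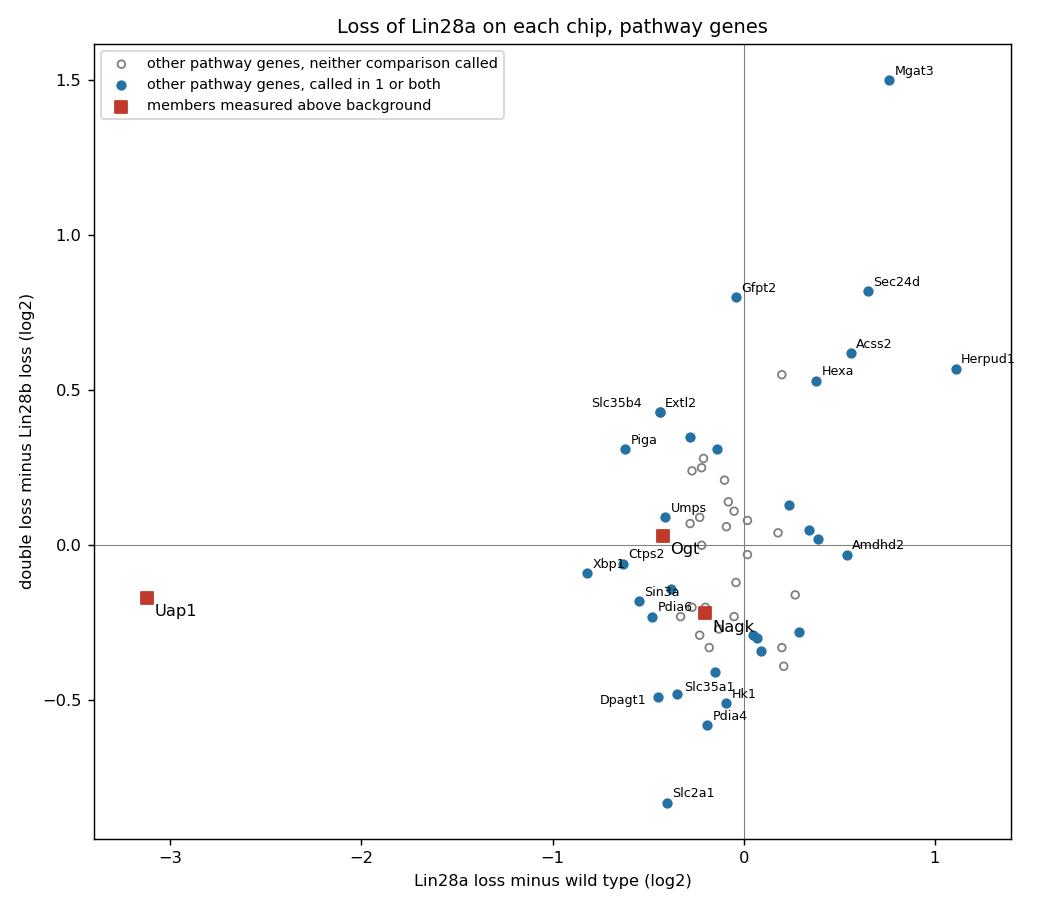
Log2 difference of Lin28a loss minus wild type (horizontal axis, chip 1) against that of double loss minus Lin28b loss (vertical axis, chip 2) for 56 tested genes of the 9 lists and for Uap1, Nagk and Ogt. Uap1 lies at -3.12 and -0.17, away from the other genes, none of which is lower than -0.82 on the horizontal axis.

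Close to the members, among 9 tested genes of amino sugar branches and recycling, 1 rose in Lin28a loss against wild type. That was Amdhd2, which takes the acetyl group off N-acetylglucosamine 6-phosphate, at 0.54 (SE 0.12, adjusted p = 0.00302, limma). Gfpt2, the paralogue of Gfpt1, had levels of 9.10, 9.22 and 9.43 in wild type and 9.18, 9.26 and 9.20 in Lin28a loss, 8.78, 8.76 and 9.02 in Lin28b loss and 9.73, 9.70 and 9.55 in double loss. It was highest in double loss, with no overlap with Lin28b loss, and rose there by 0.80 (SE 0.11, adjusted p = 9.34e-05, limma). In the same comparison Gnpda1, which turns glucosamine 6-phosphate back to fructose 6-phosphate, rose by 0.31 and Nans, a sialic acid synthase, fell by 0.41. Uap1l1, the paralogue of Uap1, fell in double loss against wild type (-0.75, SE 0.22, adjusted p = 0.0167, limma), where Cmas, which activates sialic acid, fell by 0.53.

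Of 11 tested genes of substrate supply, 3 rose and 3 fell in Lin28a loss against wild type, and 1 rose and 4 fell in double loss against Lin28b loss. Acss2, which makes acetyl-CoA from acetate, rose in both (0.56 and 0.62, SE 0.12). The glucose carrier Slc2a1 fell in both (-0.40 and -0.83, SE 0.14). Ctps2, an X-linked CTP synthase, fell by 0.63 and Umps, of UMP synthesis, by 0.41 in Lin28a loss against wild type, where Slc1a5, the glutamine carrier, rose by 0.39 and Ctps by 0.24. Hk1, a hexokinase, fell by 0.51 and Cad, of pyrimidine synthesis, by 0.34 in double loss against Lin28b loss.

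Genes whose products use UDP-GlcNAc moved in both directions. Of 6 N-glycan genes, 1 rose and 2 fell in Lin28a loss against wild type. Mgat3, which adds the bisecting GlcNAc, rose on each chip (0.76 and 1.50, SE 0.10), with levels of 5.59, 5.52 and 5.40 in wild type, 6.19, 6.19 and 6.42 in Lin28a loss, 5.40, 5.67 and 5.65 in Lin28b loss and 7.17, 7.02 and 7.02 in double loss. Dpagt1, which starts the lipid-linked glycan, fell on each chip (-0.45 and -0.49, SE 0.13), and Mgat1, which adds the first branch, fell by 0.38 on chip 1. Of 4 GPI anchor genes, 1 fell in Lin28a loss against wild type: the X-linked Piga (-0.62, SE 0.16, adjusted p = 0.00972, limma), whose product is the catalytic subunit that transfers GlcNAc to phosphatidylinositol. Of 4 genes of heparan sulfate, Extl2 fell by 0.44 (SE 0.07) and Ext2 rose by 0.34 (SE 0.12) in that comparison, and in double loss against Lin28b loss Extl2 rose by 0.43.

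Of 4 tested genes of nucleotide sugar carriers, 1 rose and 2 fell in Lin28a loss against wild type. Slc35b4 fell by 0.44 and Slc35a1, the CMP-sialic acid carrier, by 0.35, while Slc35d2 rose by 0.29; in double loss against Lin28b loss Slc35b4 rose by 0.43 and the 2 others fell by 0.48 and 0.28. Of 7 partners of Ogt, 0 rose and 2 fell in Lin28a loss against wild type: Sin3a, a corepressor scaffold, by 0.55 and Trak2, which links mitochondria to motors, by 0.28. In double loss against Lin28b loss Trak2 rose by 0.35 and Tet1, a methylcytosine dioxygenase, fell by 0.29. Of 5 tested genes of hexosaminidases and related enzymes, 0 were called in Lin28a loss against wild type by limma, and 0 at an unadjusted p below 0.05. In double loss against Lin28b loss Hexa, which cleaves terminal GalNAc and GlcNAc, rose by 0.53.

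Of 7 tested genes of the Xbp1 branch of the unfolded protein response, 2 rose and 2 fell in Lin28a loss against wild type. Xbp1, described as an activator of Gfpt1, had levels of 10.75, 11.20 and 11.26 in wild type, 10.26, 10.26 and 10.23 in Lin28a loss, 10.89, 10.88 and 10.77 in Lin28b loss and 10.59, 10.81 and 10.87 in double loss. Lin28a loss was lower than all other arrays, and Xbp1 fell by 0.82 (SE 0.13, adjusted p = 0.000284, limma). Herpud1, of endoplasmic reticulum degradation, rose by 1.11 (SE 0.11) and by 0.57 (SE 0.11) on the 2 chips, and Sec24d, of transport vesicles, by 0.65 and 0.82 (SE 0.16). Pdia6 fell by 0.48 on chip 1 and Pdia4, also a protein disulfide isomerase, by 0.58 on chip 2. The array measures total Xbp1 signal and not its splicing.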

How the data were processed

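The authors deposited a table of 1 signal and 1 detection p-value per gene and array; per the file headers (GenomeStudio export, GSGX 1.9.0) each signal is a mean bead intensity, neither background subtracted nor normalized. The deposited table also holds bead numbers and the bead standard error, a signal in the same units, per the file headers, and these only describe precision. The design had assumed probes, but the table is per gene. Of the per-sample columns 120 stayed unused.

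Members, lists and rules for named genes were chosen with earlier results of these data known, and the core letters searched in promoters, the second Gfpt1 entry and the genes low in Lin28a loss after their values were seen. Signals were corrected with normexp (limma 3.58.1, R 4.3.3), with background means and SDs estimated from detection p-values of 21863 single-probe genes. After an offset of 16 and log2, quantile normalization was applied. Genes with a detection p below 0.01 on all 3 arrays of at least 1 group passed (10372 of 30854); 452 dimmer entries of a repeated name were dropped, leaving 9920. Names came from a RefSeq table (GRCm38.p6): 18045 matched by Entrez identifier, 2073 by symbol, 2663 by synonym, and 8073 kept the file's name. One limma fit (lmFit, eBayes) used all 12 arrays, for 7 comparisons, with Benjamini-Hochberg adjustment over 9920 genes and a threshold of 0.05. The 7 comparisons were each loss against wild type, the 3 between loss groups, and the difference of both effects of Lin28a loss.

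Named were every member; per list at most 3 called genes each way within a chip and 2 otherwise; the 5 genes most like Uap1 and 3 for Nagk and Ogt; and 5 neighbours of Uap1 on each side. Alternatives were median scaling, cyclic loess, no background correction, no filter, detection on all 12 arrays, only the groups compared, array weights, the replicate number as a block, each array left out, the 3 brightest arrays left out, and the chip as a block. Same-numbered arrays of wild type and double loss deviated together (r of 0.687, 0.576 and 0.253), in the data and not by the labels. Unlike-numbered arrays of those groups ran from -0.685 to 0.548. Wild type replicate 3 was closer to double loss replicate 2 (0.386) than to replicate 3. Lin28a loss replicate 3 with double loss replicate 1 also gave 0.687, so the replicate number alone does not set these pairs apart. The fit was tested on simulated data. The values of 1 list gene are not reported here, although counts over the lists include it. Figures used matplotlib 3.10.9 under Python 3.11.15.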

Additional observations from a re-analysis of the deposited data

Results flagged for a closer look

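The effect of Lin28a loss differed between cells with and without Lin28b for 17 of the genes named, as the difference of both effects (double loss minus Lin28b loss, less Lin28a loss minus wild type). For Uap1 it was 2.95, chosen for its fall and not tested. For the others it passed an adjusted p below 0.05 in limma. It was positive for Gfpt2 (0.84), Gnpda1 (0.45), Umps (0.50), Ctps2 (0.57), Mgat3 (0.73), Piga (0.93), Ext1 (0.47), Extl2 (0.87), Slc35b4 (0.87), Trak2 (0.63) and Xbp1 (0.73). It was negative for Amdhd2 (-0.57), Gpi1 (-0.43), Cad (-0.43), Slc35d2 (-0.57) and Herpud1 (-0.55). The 2 effects lie on different chips and in different lines, and 37.8% of all genes passed the same test.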

How the results depend on the processing

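The detection filter left 3 members to test, and with 3 arrays per group a small change cannot be told from none. Over 18 same-numbered pairs of arrays r ran from -0.573 to 0.687, 9 over 0.1, so the replicate numbers do not pair most groups. Double loss minus wild type, where those values were 0.687, 0.576 and 0.253, kept 0 members called under the replicate block. Uap1, given without a test, was -3.23 to -2.96 for Lin28a loss minus wild type with 1 array left out and -2.73 with no background correction; the mean of its effects on both chips, a different quantity, was -1.65. That mean was 0.23 (adjusted p = 0.126, limma) for the second Gfpt1 entry, whose call in Lin28a loss minus wild type was also lost with no filter and with only the groups compared.

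With 1 array left out, members called ranged from 0 to 1 in Lin28a loss minus wild type, double loss minus Lin28a loss, Lin28a loss minus Lin28b loss and the difference of both effects, and were 0 to 0 in the 3 others. The replicate block gave 1 member (Ogt, adjusted p = 0.0404, limma) in Lin28a loss minus wild type and 1 (0.0376) in Lin28a loss minus Lin28b loss; array weights gave 1 in both, in double loss minus Lin28b loss and in the difference of both effects; leaving out the 3 brightest arrays gave 1 in the first 3 of these. No filter gave 1 (Mgea5) in Lin28b loss minus wild type, double loss minus wild type and Lin28a loss minus Lin28b loss, and 1 in double loss minus Lin28a loss in place of Ogt. Only the groups compared gave 1 in Lin28a loss minus Lin28b loss. Double loss minus Lin28a loss fell to 0 members with median scaling, cyclic loess and only the groups compared. Nagk, never called, changed sign to -0.23 (median scaling) and -0.03 (brightest arrays out) in Lin28b loss minus wild type, to -0.18, -0.03, -0.01 and -0.02 (median scaling, cyclic loess, array weights, brightest arrays out) in double loss minus Lin28a loss, to 0.06 (median scaling) in Lin28a loss minus Lin28b loss, and to 0.05 and 0.01 (median scaling, brightest arrays out) in the difference of both effects. Ogt changed sign to 0.09 (brightest arrays out) in Lin28b loss minus wild type, to -0.13, -0.15 and -0.03 (median scaling, array weights, brightest arrays out) in double loss minus wild type, and to -0.10 and -0.12 (array weights, brightest arrays out) in double loss minus Lin28b loss. The second Gfpt1 entry changed sign to 0.07 in the latter with median scaling. With 1 array left out, Nagk spanned -0.03 to 0.09, -0.15 to 0.13 and -0.18 to 0.10 in Lin28b loss minus wild type, double loss minus Lin28a loss and the difference of both effects; Ogt spanned -0.17 to 0.09, -0.15 to 0.11 and -0.12 to 0.12 in Lin28b loss, double loss minus wild type and double loss minus Lin28b loss; and the second Gfpt1 entry spanned -0.15 to 0.06 in the latter. Median scaling moved the median of all genes to -0.233 in Lin28b loss minus wild type and 0.244 in Lin28a loss minus Lin28b loss, where 1804 and 3228 genes were called against 3585 and 5306, and in Lin28a loss minus wild type it called 1401 against 3645, 982 up and 419 down. The cause of these changes was not tested.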
